A study of Mus musculus with 32 samples.

Results

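Mitochondrial ribosomal protein genes are the nuclear genes, named Mrpl for the large and Mrps for the small ribosomal subunit, whose products are imported into mitochondria and build the ribosome there. They were chosen here as the protein-coding genes of the count table whose symbol is Mrpl or Mrps followed by a digit. This gave 78 of 27179 genes, 49 named Mrpl and 29 named Mrps. By known location of the protein, 51 belong to the large subunit and 26 to the small subunit, and Mrps36, despite its symbol, encodes a subunit of the 2-oxoglutarate dehydrogenase complex. The genes lie on 17 chromosomes, and their exon length in the deposited table had a median of 1054 bp and ran from 407 to 6712 bp. All 78 passed the filter on low counts in every fit.

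The mitochondrial ribosome translates the few proteins encoded by mitochondrial DNA, all of them core subunits of the respiratory chain and of ATP synthase. Its RNA comes from mitochondrial DNA, while every one of its proteins comes from the nucleus. Part of the proteins have counterparts in bacterial ribosomes, and the rest are found only in mitochondria. Quiescent hematopoietic stem cells are known for low mitochondrial activity, with respiration rising as cells enter cycle and differentiate.

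RNA was sequenced in 32 libraries from 16 adult C57BL/6 mice, 1 library of LSK cells and 1 of progenitor cells from each mouse. LSK cells are bone marrow cells that lack lineage markers and carry Sca-1 and Kit, a population that includes hematopoietic stem cells; the gate of the progenitor cells is not described in the labels. The gene under study was Kat7 (Hbo1), which encodes a histone acetyltransferase and which the series title ties to the quiescence of stem cells. There were 8 groups of 4 libraries: LSK or progenitor cells, CreER or Mx1Cre line, control or knockout. Knockouts were Hbo1fl/fl mice with both alleles deleted. Controls were Hbo1fl/+ mice carrying the same Cre with 1 allele deleted per the titles, although the treatment protocol calls them wild type. In the CreER line the recombinase was RosaCreERT2, expressed from a widely active locus, and mice received tamoxifen. In the Mx1Cre line the recombinase is driven by an interferon-responsive promoter that is also active outside blood cells, and mice received polyIC, which induces interferon. Controls therefore carried the Cre and received its inducing agent. CreER and Mx1Cre groups differ in recombinase, inducing agent, mice and sex ratio at once, and these cannot be told apart in a comparison between the lines. The labels give neither exact ages nor the time after induction.

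Total counts ran from 7275277 to 18409271 per library with a median of 12207444, and the 78 genes together took from 0.364% to 0.674% of them. Kat7 was lower in all 4 knockout groups, with log2 fold changes of -6.29 and -5.71 in LSK cells and -7.24 and -5.41 in progenitors for CreER and Mx1Cre. All 8 markers of LSK stem and multipotent cells had counts in every LSK library, Slamf1 and Flt3 among them. At sex-linked genes, libraries 2 and 3 of the LSK CreER knockout group did not match the labelled sex, so results resting on them are also given without both. Progenitor Mx1Cre control library 1 stood apart from the other 3 of its group, with many short genes high, and results resting on it are likewise given without it. In bulk RNA, fewer cells of a type and less RNA per cell cannot be told apart.

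The sequence before the start of a gene holds sites for factors that control it, and 3 factors known from nuclear genes for mitochondria are NRF1, GABP and YY1. Upstream sequences of 6 members are shown because these genes carry the results below and each holds 1 letter match in the stretch printed: Mrpl30 and Mrpl44 rose in LSK knockouts and match the NRF1 motif, Mrps22, Mrps18c and Mrps26 match the GABP motif, and Mrpl36 matches the YY1 motif. Each stretch is the 250 bases before the annotated start, from RefSeq on GRCm38.p6, written along the gene's own strand, with the matched motif in capitals on whichever strand it was found. In the order printed, they are chr1:37890227-37890476 (plus strand), chr1:79775768-79776017 (plus), chr9:98601680-98601929 (minus), chr5:100798509-100798758 (plus), chr2:130563507-130563756 (plus) and chr13:73330759-73331008 (plus). The last lies within the gene span that RefSeq gives for Mrpl36, since the start used for its promoter is inside that span.
Mrpl30: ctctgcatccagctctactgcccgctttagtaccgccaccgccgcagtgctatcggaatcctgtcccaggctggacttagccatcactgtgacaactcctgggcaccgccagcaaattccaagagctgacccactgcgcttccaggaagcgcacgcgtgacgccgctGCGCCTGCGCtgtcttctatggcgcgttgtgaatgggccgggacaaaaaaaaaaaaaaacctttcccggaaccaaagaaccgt
Mrpl44: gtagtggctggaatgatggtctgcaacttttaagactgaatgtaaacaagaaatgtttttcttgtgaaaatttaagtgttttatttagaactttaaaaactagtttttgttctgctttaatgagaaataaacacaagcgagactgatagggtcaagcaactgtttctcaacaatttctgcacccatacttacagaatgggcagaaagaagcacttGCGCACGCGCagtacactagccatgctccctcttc
Mrps22: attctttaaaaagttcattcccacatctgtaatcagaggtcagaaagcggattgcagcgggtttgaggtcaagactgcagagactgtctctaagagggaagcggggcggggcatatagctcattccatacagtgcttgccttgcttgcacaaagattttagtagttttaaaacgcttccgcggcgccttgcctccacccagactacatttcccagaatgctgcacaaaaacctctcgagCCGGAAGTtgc
Mrps18c: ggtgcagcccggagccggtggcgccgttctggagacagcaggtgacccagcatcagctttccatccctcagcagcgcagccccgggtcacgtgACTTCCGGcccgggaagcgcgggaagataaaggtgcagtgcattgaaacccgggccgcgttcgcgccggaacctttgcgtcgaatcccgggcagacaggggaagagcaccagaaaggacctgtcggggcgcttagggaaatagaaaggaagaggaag
Mrps26: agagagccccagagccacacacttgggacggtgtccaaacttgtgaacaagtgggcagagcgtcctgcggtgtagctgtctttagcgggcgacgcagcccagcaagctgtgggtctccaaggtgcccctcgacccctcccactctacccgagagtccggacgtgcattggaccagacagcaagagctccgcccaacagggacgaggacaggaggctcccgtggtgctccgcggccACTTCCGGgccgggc
Mrpl36: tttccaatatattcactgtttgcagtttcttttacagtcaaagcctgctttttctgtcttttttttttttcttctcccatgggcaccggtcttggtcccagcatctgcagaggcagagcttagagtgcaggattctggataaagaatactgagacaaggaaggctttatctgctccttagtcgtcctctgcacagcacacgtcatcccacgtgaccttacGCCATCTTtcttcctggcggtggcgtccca

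The motifs searched, on both strands and over 250 bases before to 50 after the start, were GCGC followed by any base, T and again GCGC for NRF1, CCGGAAGT for GABP and AAGATGGC for YY1. RefSeq gave a promoter for 69 of the 78 genes. The NRF1 letters were found in 13 of the 69 (18.8%), against 4.60% of all 32851 promoter windows of this length. Of the 9944 coding genes tested here that had a promoter, 11.5% held them. Members and coding genes were counted by gene, with a match in any of their windows. Shares of all windows count single windows and are not like for like. GABP letters were found in 12 members (17.4%), against 3.89% of all windows and 9.23% of coding genes tested. YY1 letters were found in 12 members (17.4%), against 2.75% and 5.33%. At least 1 of the 3 was present in 34 members (49.3%), against 10.4% and 23.7%. Counted by gene as members were, all 17491 coding genes with a promoter had shares of 7.17% for NRF1 and 5.69% for GABP. For YY1 the share was 3.57%, and for any of the 3 motifs 15.1%. None of the 3 motifs contains another, and Mrpl32, Mrps26 and Mrps27 held 2 of the 3 motifs. A match is a description of letters and not a bound site.

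Compared per kilobase of exon, the mean level over all 32 libraries was highest for Mrpl33 at 189 CPM per kb and Mrpl12 at 184 CPM per kb. CPM is the count of a gene scaled to a common library total, with the totals adjusted by the trimmed mean of M values (TMM). Mrpl12 encodes the stalk protein that recruits translation factors, and Mrpl33 a small protein of the large subunit. The order of these 2 differed by line: Mrpl12 was the higher in the means of all 4 CreER groups, at 163 ± 28.7 against 114 ± 21.7 CPM per kb (SD, n = 4) in LSK controls. Mrpl33 was the higher in all 4 Mx1Cre groups, at 180 ± 14.7 against 132 ± 9.62 CPM per kb (SD, n = 4) in LSK controls. Over all libraries, next were Mrpl20 at 117, Mrpl18 at 108 and Mrpl13 at 103 CPM per kb, all large-subunit proteins with bacterial counterparts. At the low end were Mrps36 at 2.84, Mrpl23 at 3.83 and Mrps33 at 5.49 CPM per kb. Mrpl23 and Mrps36 have named pseudogenes, as do Mrpl27 and Mrpl48, so that reads may be split between near-identical copies and their levels are uncertain. In all, 25 members overlap another annotated gene, among them Mrpl33, Mrpl44 and Mrpl48, and without a stated strand setting reads of the overlapping part cannot be assigned.

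Summed over the 78 genes, levels in LSK cells were 3689, 3793, 4440 and 3967 CPM in the 4 CreER controls and 3704, 3473, 4066 and 3656 CPM in the 4 Mx1Cre controls. The 4 CreER knockouts held 4141, 4580, 3712 and 4281 CPM, inside or just above the span of their controls. The 4 Mx1Cre knockouts held 5068, 4088, 5558 and 5325 CPM, all above their controls. Library 2 of that group exceeded the highest control by little, and the other 3 by a wide margin.

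In progenitor cells the summed levels were 3929, 4283, 4711 and 4999 CPM for the CreER controls, and the 4 CreER knockouts, at 4335, 4775, 4229 and 4958 CPM, overlapped them fully. Progenitor Mx1Cre controls held 7567, 4057, 4317 and 4780 CPM and knockouts 4600, 4763, 5380 and 6644 CPM. Control library 1 was the highest of all 32 libraries, and knockouts 3 and 4 were above the other 3 controls while knockouts 1 and 2 were not.

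**Figure D1:**
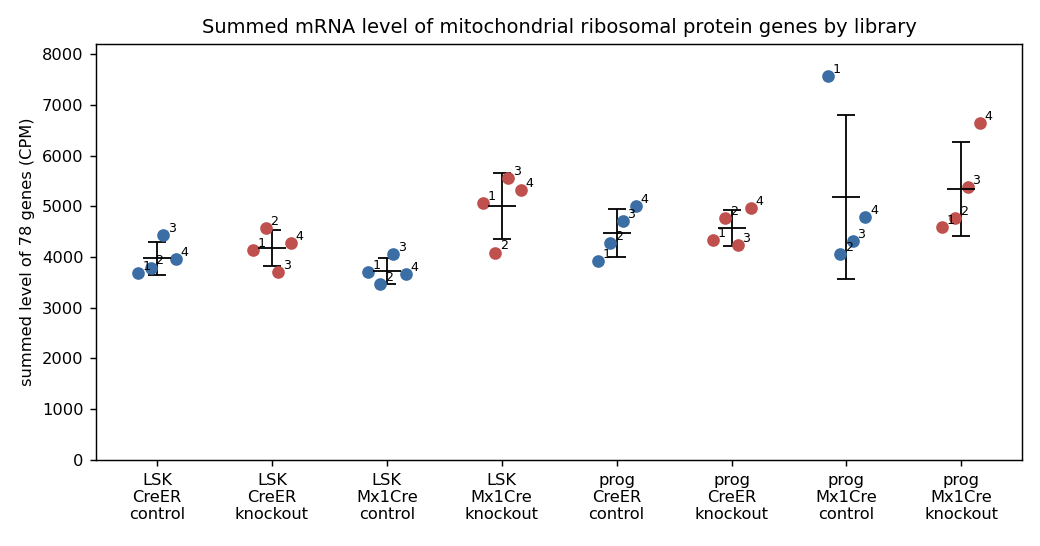
Summed level of the 78 mitochondrial ribosomal protein genes in CPM (vertical axis) for each of 32 libraries, by group; numbers beside points are replicate numbers, and the dash and bars are the mean and SD of 4 libraries. The 4 LSK Mx1Cre knockouts lie between 4088 and 5558 CPM, above their 4 controls, and progenitor Mx1Cre control 1 lies apart at 7567 CPM.

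The first comparison asked what loss of Kat7 did to these genes in LSK cells of the Mx1Cre line. Of the 78 genes, 61 were higher and 0 lower in knockouts by edgeR's quasi-likelihood test with Benjamini-Hochberg adjustment over all 14102 genes tested. Among all genes tested, 31% were called, 15.2% as higher. The median log2 fold change was 0.42 over the 78 genes, against -0.01 over all genes tested, and all 78 estimates were above 0. Both subunits took part: 42 of 51 large-subunit genes rose, with a median log2 fold change of 0.39, and 19 of 26 small-subunit genes, with a median of 0.48. Members with bacterial counterparts (36 of 44 rose) and members found only in mitochondria (21 of 29 rose) had medians of 0.44 and 0.42. Among called genes the log2 fold changes ran from 0.31 to 0.73.

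Mrps22 encodes a small-subunit protein without a bacterial counterpart, in which mutations cause a mitochondrial disease of infancy (chromosome 9, 98588730 to 98601679, RefSeq on GRCm38.p6, as for the other genes below). Its levels were 30.4, 26.4, 31.9 and 31.4 CPM in Mx1Cre controls and 44.5, 38, 43.4 and 53.4 CPM in knockouts. The groups did not overlap, and the log2 fold change was 0.57 ± 0.11 (SE), or 1.49-fold, with an adjusted p of 0.000911 in edgeR's test after Benjamini-Hochberg adjustment. Mrpl44 encodes a large-subunit protein with a ribonuclease III fold (chromosome 1, 79776018 to 79781445). It measured 59.6, 55.2, 58 and 60.9 CPM in controls and 96.9, 70.1, 92.2 and 99.3 CPM in knockouts. All 4 knockouts exceeded all 4 controls, with library 2 the lowest of the knockouts, and edgeR gave a log2 fold change of 0.61 ± 0.12 (SE) and a Benjamini-Hochberg adjusted p of 0.00112.

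Mrpl46, a large-subunit protein of the central protuberance (chromosome 7, 78775341 to 78783089), had 26.7, 26.6, 33.8 and 28.8 CPM in controls. The knockouts held 50.4, 35.9, 51.8 and 51.4 CPM. The groups were separate, though knockout 2 lay close to control 3; the log2 fold change was 0.71 ± 0.14 (SE), or 1.63-fold, with an edgeR Benjamini-Hochberg adjusted p of 0.00117. The largest rise among the members was that of Mrpl54, which encodes a large-subunit protein found only in mitochondria (chromosome 10, 81264722 to 81266926). Its levels were 34.9, 35, 45.7 and 36.4 CPM in controls and 62.7, 43.8, 77.4 and 68.8 CPM in knockouts. Here control 3 and knockout 2 crossed; the log2 fold change was 0.73 ± 0.15 (SE), or 1.66-fold, with an edgeR Benjamini-Hochberg adjusted p of 0.00136.

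Other members with a known role rose by like amounts in the same comparison. The stalk gene Mrpl12 changed by 0.65 on the log2 scale, from 124, 113, 134 and 129 CPM in controls to 194, 138, 239 and 216 CPM in knockouts. Mrps18c, 1 of several mitochondrial versions of bacterial ribosomal protein S18, changed by 0.70 on the log2 scale, with 19.6, 19.8, 23.3 and 22 CPM in controls and 30.3, 23.1, 45 and 40 CPM in knockouts. Its knockout 2 lay within the control span, while the other 3 knockouts were above it. At the other end, Mrpl52 had a log2 fold change of 0.01 ± 0.17 (SE) and Mrps25 one of 0.06 ± 0.07 (SE), and neither passed the test. Mrps25, of the small subunit, measured 111 to 132 CPM in the 4 controls and 122 to 129 CPM in the 4 knockouts, which overlapped.

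**Figure D2:**
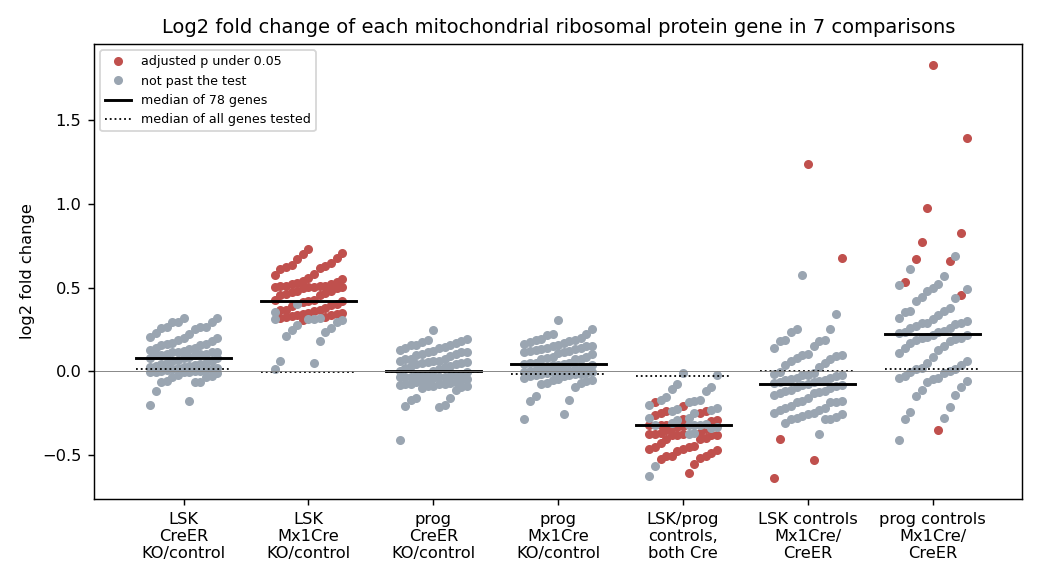
Log2 fold change (vertical axis) of each of the 78 genes in 7 comparisons; red points passed edgeR's adjusted p of 0.05, solid lines are medians of the 78 genes and dotted lines medians of all genes tested. In LSK Mx1Cre knockouts 61 points are red and all lie above 0, in CreER and progenitor knockouts none is red, and between LSK and progenitor controls 46 are red and all lie below 0.

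How the 4 knockout libraries shared the rise was read gene by gene. Knockouts 1, 3 and 4 were above all 4 controls for 69, 75 and 76 of the 78 genes, while 35.1%, 35.6% and 35.1% of all 14459 genes were. Knockout 2 was above all controls for 33 of the 78, when 31.4% of all genes were. For 32 of the 78 genes all 4 knockouts exceeded all 4 controls, which 14.2% of all genes did. Leaving out knockout 2 raised the count of higher members to 69 (39.8% of all genes called) and the median log2 fold change to 0.52. Without control 2 the count was 39 (22.1% of all genes), and without knockout 3 it was 40 (22.6%).

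Exon length went with log2 fold change over all genes tested in this comparison, with a Spearman correlation of -0.31. Among the 78 genes the correlation was -0.10. In LSK Mx1Cre knockouts the median log2 fold change of all genes tested was 0.17 under 1 kb of exon, 0.14 from 1 to 2 kb, near 0 (-0.003) from 2 to 4 kb and -0.18 at 4 kb and over. The members in the same bins had medians of 0.48, 0.40, 0.35 and 0.42, with 25 of 33, 27 of 33, 5 of 7 and 4 of 5 called higher. Among all genes of the 4 bins, 21.2%, 24.2%, 14.3% and 5.47% were called higher. The bin of 4 kb and over held only 5 members, among them Mrps25, which was not called. With the length trend of each library removed, 42 of the 78 genes were called higher and 0 as lower, with a median log2 fold change of 0.29, beside 30% of all genes called. In this setting Mrpl52 had a log2 fold change of -0.19.

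**Figure D3:**
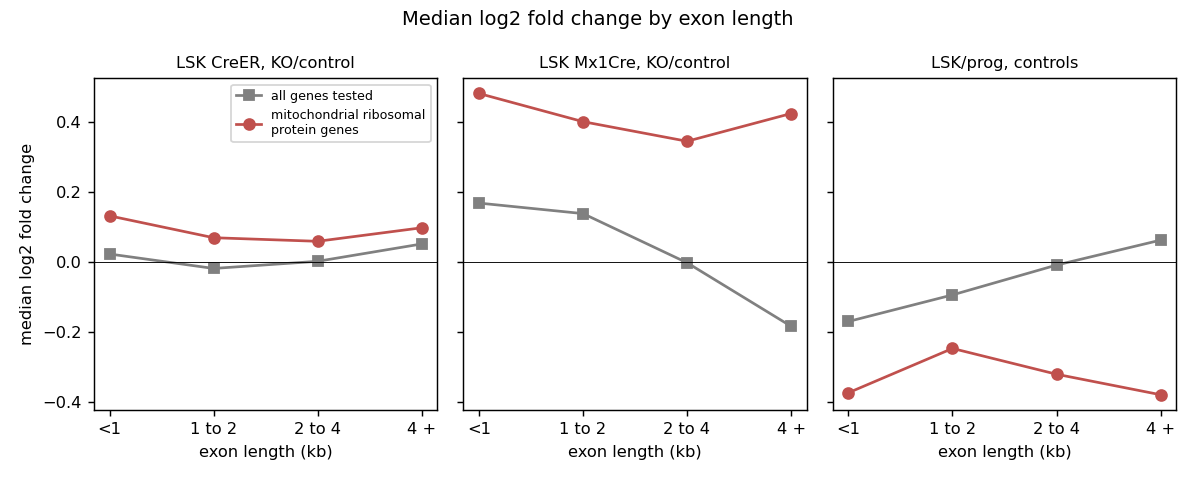
Median log2 fold change (vertical axis) of all genes tested (grey squares) and of the 78 genes (red circles) in 4 bins of exon length, for 3 comparisons. In LSK Mx1Cre knockouts the grey line falls from 0.17 to -0.18 with length while the red line stays between 0.35 and 0.48; between LSK and progenitor controls the red line lies between -0.38 and -0.25.

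The slope of log2 CPM on log2 exon length over all genes describes the same trend for each library. It was between 0.03 and 0.06 in the 4 LSK Mx1Cre controls, and -0.08, 0.02, -0.12 and -0.14 in knockouts 1 to 4. Knockout 2 thus resembled the controls in this slope, and its members were also nearest to them. Over all 32 libraries, the lowest slopes were -0.35 in progenitor Mx1Cre control 1 and -0.29 in progenitor Mx1Cre knockout 4. Their median deviations of the 78 genes from the all-library mean, 0.76 and 0.57 on the log2 scale, were the highest. What part the length trend had in the rise of the members was not tested beyond removing it.

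**Figure D4:**
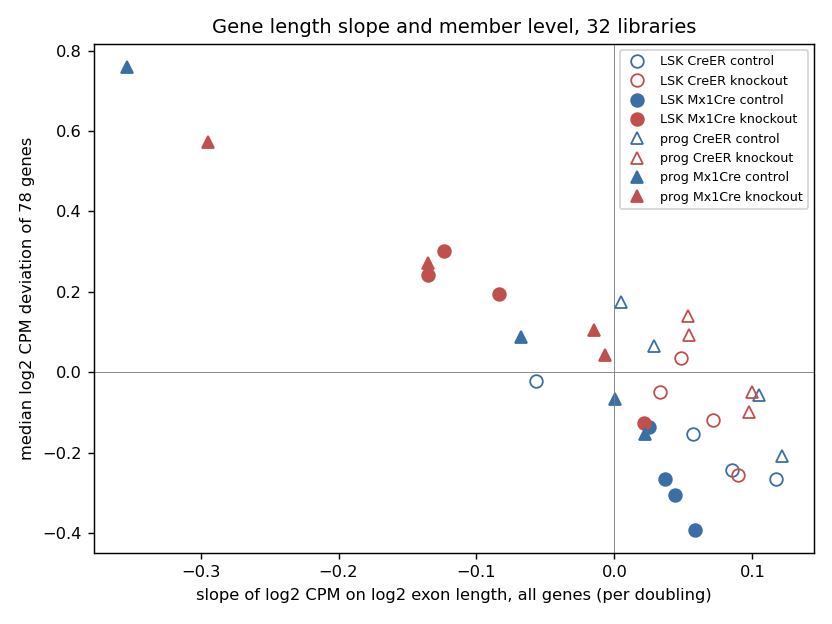
Each of 32 libraries by its slope of log2 CPM on log2 exon length over all genes (horizontal axis, per doubling of length) and the median log2 CPM deviation of the 78 genes from their mean over all libraries (vertical axis). Filled symbols are Mx1Cre and open symbols CreER, circles LSK and triangles progenitors, blue controls and red knockouts; libraries with slopes of -0.35 and -0.29 have the highest deviations, 0.76 and 0.57.

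Markers of other cells also moved in LSK Mx1Cre knockouts, where 31% of all genes tested were called. The summed level of 8 stem and multipotent markers was 742 to 870 CPM in controls and 416 to 574 CPM in knockouts, with 6 of the 8 called lower and Procr called higher. The 6 megakaryocyte-erythroid progenitor markers summed to 208 to 506 CPM in controls and 73.7 to 97.1 CPM in knockouts, with 5 of 6 called lower. The 7 myeloid progenitor markers summed to 15888 to 19962 CPM in controls and 18465 to 25136 CPM in knockouts, with 1 of 7 called higher, the granulocyte progenitor gene Ms4a3. No marker of these 3 lists was at 0 in any of the 8 libraries. The part of these shifts in the rise of the mitochondrial ribosomal protein genes was not tested.

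With CreER, the same deletion in LSK cells gave 0 called members of 78, beside 3.16% of all genes called. The median log2 fold change was 0.08, 62 of the 78 estimates were above 0, and 5 had an unadjusted p under 0.05 in edgeR. DESeq2 also called 0 members, beside 6.3% of all genes. Mrpl30, encoding the mitochondrial version of bacterial ribosomal protein L30 (chromosome 1, 37890477 to 37898338), had the lowest p. It measured 52.3, 51.4, 55.4 and 54.7 CPM in controls and 55.8, 73.1, 60.6 and 71.5 CPM in CreER knockouts. Every knockout was above every control, but the log2 fold change of 0.29 ± 0.09 (SE) had an edgeR Benjamini-Hochberg adjusted p of 0.0876 and did not pass. Without CreER knockout 1 it was 0.35 with an edgeR Benjamini-Hochberg adjusted p of 0.0266. The extremes were Mrps21 at 0.32 ± 0.30 (SE) and Mrps33 at -0.20 ± 0.28 (SE). Leaving out the 2 libraries that went against their labelled sex also left 0 called, beside 0.227% of all genes.

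CreER knockouts 1 to 4 were above all 4 controls for 16, 45, 8 and 34 of the 78 genes, while 22.9%, 27.0%, 25.2% and 22.9% of all 14459 genes were. In libraries 2 and 4 the members' share was thus above that of all genes, and in libraries 1 and 3 it was not. Library 3 had 20 members below all 4 controls, a share near the 25.4% of all genes. For 4 of the 78 genes all 4 knockouts exceeded all controls, which 4.29% of all genes did.

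The difference between the lines was tested as the Mx1Cre effect minus the CreER effect. Its median over the 78 genes was 0.36 on the log2 scale, with 75 of 78 estimates above 0, but only 1 gene was called, beside 4.37% of all genes. That gene was Mrps26 (chromosome 2, 130563757 to 130565394), which encodes a small-subunit protein found only in mitochondria. In the CreER line it had 81.2, 87.5, 104 and 88.7 CPM in controls and 76.9, 89, 68.6 and 84.8 CPM in knockouts. In the Mx1Cre line it had 77.4, 71.5, 76.6 and 74.1 CPM in controls and 96, 86.4, 120 and 117 CPM in knockouts. The groups overlapped with CreER and were separate with Mx1Cre, and the difference of 0.66 ± 0.16 (SE) on the log2 scale had an edgeR Benjamini-Hochberg adjusted p of 0.0272. Next were Mrps22 at 0.54 ± 0.15 (SE), with an edgeR Benjamini-Hochberg adjusted p of 0.0536, and Mrps6 at 0.73 ± 0.21 (SE), with 0.0550. The count depended on single libraries: 34 members were called without Mx1Cre knockout 2 (17.9% of all genes), and 0 without CreER knockouts 2 and 3 (2.13%). It was also 0 without CreER control 3 (3.44% of all genes), CreER knockout 3 (2.71%) or Mx1Cre control 2 (2.34%) alone. The same held without Mx1Cre knockout 3 (2.24%) or Mx1Cre knockout 4 (2.74%) alone. By DESeq2 the count was 8, beside 8.72% of all genes. For most members a difference between the lines was thus not shown, and the 2 knockout effects are given side by side.

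Averaged over both lines, 46 of the 78 genes were higher and 0 lower in LSK knockouts by edgeR, beside 27.8% of all genes called, 13.5% as higher. The median log2 fold change was 0.26, and all 78 estimates were above 0. Mrpl30 had the lowest p of the members: with 42.8, 47.5, 47.8 and 47.5 CPM in Mx1Cre controls and 57.1, 57.2, 63.7 and 63.3 CPM in Mx1Cre knockouts, its groups were separate in both lines. Its mean log2 fold change was 0.33 ± 0.06 (SE), with an edgeR Benjamini-Hochberg adjusted p of 0.00102. Mrpl36, the mitochondrial version of bacterial L36 (chromosome 13, 73328503 to 73332178), came next. It had 65.4, 64.4, 75.1 and 64.4 CPM in CreER controls, and the CreER knockouts had 87.5, 90.6, 72 and 69.3 CPM. In the Mx1Cre line it had 65.5, 64.7, 67.4 and 60.2 CPM in controls and 89.4, 78.1, 103 and 96.7 CPM in knockouts. CreER control 3 overlapped the knockouts and the Mx1Cre groups were separate; the mean log2 fold change was 0.38 ± 0.07 (SE), with an edgeR Benjamini-Hochberg adjusted p of 0.00121.

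The others of the 6 with the lowest p were Mrpl46 at 0.47, Mrpl44 at 0.40, Mrps31 at 0.36 and Mrpl16 at 0.39 on the log2 scale. Mrpl16 encodes the mitochondrial version of bacterial L16, a protein near the catalytic centre of the large subunit. It had 57.7, 53.2, 68.7 and 58.7 CPM in CreER controls, and the CreER knockouts had 64.6, 75, 57.9 and 68.8 CPM. In the Mx1Cre line it had 42.2, 45, 52.3 and 54.1 CPM in controls and 79.4, 57.4, 80.6 and 81.9 CPM in knockouts. Its groups overlapped with CreER and were separate with Mx1Cre. The largest mean rise was that of Mrps18c at 0.48 ± 0.13 (SE), and the lowest estimate that of Mrpl52 at 0.003 ± 0.12 (SE). Without CreER knockouts 2 and 3 the count was 39 (21.8% of all genes called); it was 30 without CreER knockout 2 alone (21.8%) and 30 without Mx1Cre control 2 (22.7%). With the length trend removed 43 were called, beside 30.4% of all genes, with a median of 0.20, and Mrpl52 was at -0.13.

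**Figure D5:**
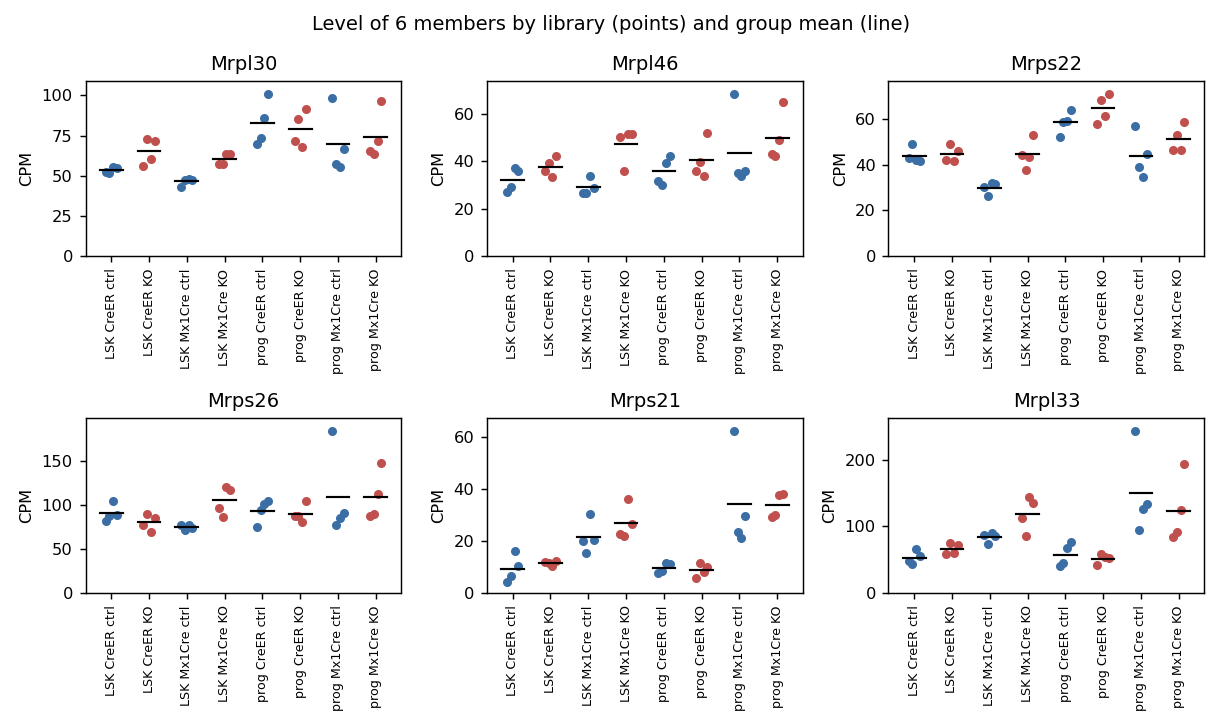
CPM (vertical axis, from 0) of 6 members in every library (points; blue controls, red knockouts) with the mean of each group of 4 (line). Mrpl30, Mrpl46, Mrps22 and Mrps26 are higher in LSK Mx1Cre knockouts than in their controls, and the means of Mrps21 and Mrpl33 are higher in Mx1Cre than in CreER groups.

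Other genes of mitochondrial protein synthesis and respiration were read from lists in the same LSK comparisons. In Mx1Cre knockouts, to which the counts of these lists refer, 31% of all genes tested were called, 15.2% as higher. In Mx1Cre knockouts all 5 mitochondrial ribosomal proteins with other symbols rose, with a median log2 fold change of 0.39: Dap3, Ptcd3, Chchd1, Aurkaip1 and Gadd45gip1. Of 11 translation factors 5 rose, among them the elongation factor gene Gfm1 at 0.49 ± 0.10 (SE) and Tsfm at 0.63 ± 0.12 (SE), and none fell. Of 28 assembly and rRNA factors 9 rose and 1 fell; Mpv17l2 rose by 0.74 ± 0.14 (SE), while the rRNA methyltransferase gene Mrm1 fell by 0.24 ± 0.08 (SE), which is -0.24 on the log2 scale. Of 17 mitochondrial aminoacyl-tRNA synthetases 5 rose, among them Yars2 at 0.52 ± 0.09 (SE). Summed, the 17 held 1209 to 1367 CPM in Mx1Cre controls and 1120 to 1486 CPM in knockouts, which overlapped. Of 19 genes of mitochondrial DNA maintenance, transcription and RNA processing 4 rose, near the share of all genes called higher, and 1 fell. The sum of these 19 was 830 to 890 CPM in Mx1Cre controls and 969 to 1061 CPM in knockouts, which were separate.

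The nuclear genes for respiratory chain and ATP synthase subunits had the like pattern, with 56 of 76 higher, 0 lower and a median log2 fold change of 0.49. Uqcrc1, a core subunit of complex III, measured 286 to 308 CPM in the 4 Mx1Cre controls and 380 to 535 CPM in the 4 knockouts, and its log2 fold change was 0.65 ± 0.10 (SE). Cyc1, cytochrome c1 of the same complex, measured 160 to 199 CPM in controls and 232 to 298 CPM in knockouts. Both pairs of groups were separate. Of 19 import, chaperone and mitochondrial mass genes 13 rose, among them Tomm40 at 0.66 ± 0.12 (SE) and Vdac2 at 0.59 ± 0.10 (SE).

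The transcripts of mitochondrial DNA and the proteins of the cytosolic ribosome had other counts. None of the 13 mitochondrial DNA-encoded subunits was called, and their median log2 fold change was -0.03. Of 84 cytosolic ribosomal protein genes 1 rose and 1 fell, Rps27l and Rps4l, with a median of 0.02. Of 11 regulators of nuclear genes for mitochondria, 2 rose and 2 fell in Mx1Cre knockouts, which was near the shares of all genes. Nrf1, which encodes the factor of the first motif above, had a log2 fold change of 0.03 ± 0.08 (SE) and Gabpa one of 0.15 ± 0.09 (SE), and neither passed. Yy1 rose by 0.18 ± 0.07 (SE), while Mycn, of the Myc family, fell from 14.4 to 26.1 CPM in controls to 1.80 to 3.60 CPM in knockouts, a log2 fold change of -2.93 ± 0.29 (SE). Myc itself was at -0.06 ± 0.13 (SE). These lists were compared by counts and medians alone, and the regulators other than Mycn, with Aurkaip1 and Gadd45gip1, were named after their values were seen.

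Members with and without a promoter match were set side by side in LSK Mx1Cre knockouts, where 15.2% of all genes tested were called higher. Of the 34 with any of the 3 motifs 27 were called higher, with a median log2 fold change of 0.38, and of the 35 without 25, with a median of 0.42. The 12 with a GABP match had 11 called and a median of 0.49, and the 57 without had 41 called and a median of 0.39. For NRF1 10 of 13 with a match were called higher and 42 of 56 without, with medians of 0.38 and 0.42. For YY1 these were 9 of 12 and 43 of 57, with medians of 0.38 and 0.42. The differences were not tested.

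In progenitor cells, 0 of the 78 genes were called in CreER knockouts, beside 0.168% of all genes. The median log2 fold change was 0.002, 39 of the 78 estimates were above 0, and 0 had an unadjusted p under 0.05 in edgeR. Mrpl23, at the lowest estimate of -0.41 ± 0.38 (SE), is among the least expressed members. The Mx1Cre line likewise gave 0 called, beside 6.08% of all genes, with a median of 0.04 and 1 gene at an unadjusted p under 0.05 in edgeR. That gene was Mrpl38, a large-subunit protein of the central protuberance. It had 67.4, 56.5, 65.1 and 62.6 CPM in progenitor Mx1Cre controls and 75.9, 79.7, 76.7 and 78.8 CPM in knockouts. The groups were separate, and the log2 fold change of 0.30 ± 0.12 (SE) had an edgeR Benjamini-Hochberg adjusted p of 0.183. It was the only member of which all 4 knockouts exceeded all 4 controls, which 3.33% of all genes did.

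The median in this line depended on 1 control. Without progenitor Mx1Cre control 1, 3 of the 78 genes were called higher in Mx1Cre knockouts, beside 11.1% of all genes, and the median log2 fold change was 0.32, with 75 estimates above 0. The 3 were Mrpl3 at 0.29, Mrpl9 at 0.36 and Mrpl52 at 0.89. With the length trend removed as well, the median was 0.21 and 3 were called, beside 14.3% of all genes: Mrpl1, Mrpl9 and Mrpl52. Mrpl1, Mrpl9 and, in the next paragraph, Mrps7 were named after their values were seen.

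Averaged over both lines, 0 of the 78 genes were called in progenitors, beside 7.79% of all genes, with a median log2 fold change of 0.04. Unadjusted p was under 0.05 in edgeR for 2, Mrpl38 at 0.20 ± 0.09 (SE) and Mrpl48 at 0.17 ± 0.08 (SE), and DESeq2 also called 0. Mrps22 was at 0.17 ± 0.10 (SE), and without Mx1Cre control 1 at 0.26 and called, as 1 of 2 members beside 13% of all genes. With the length trend removed, 3 were called higher, Mrpl20, Mrps7 and Mrps22, beside 11.3% of all genes, and with both changes 8, beside 18.2%. The difference between the lines gave 0 called, beside 0.299% of all genes, and a median of 0.05. Without Mx1Cre control 1 that median was 0.31, again with 0 called, beside 0.434% of all genes.

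Whether the knockout effect differed between LSK and progenitor cells was tested across all 32 libraries. The median of the LSK effect minus the progenitor effect was 0.20 on the log2 scale, and all 78 estimates were above 0, but 0 were called, beside 2.52% of all genes. Of the 78 genes, 9 had an unadjusted p under 0.05 in edgeR, and DESeq2 also called 0, beside 4.23% of all genes. Mrps31, of the small subunit, had the lowest p: the difference was 0.38 ± 0.14 (SE), with an edgeR Benjamini-Hochberg adjusted p of 0.156. It measured 25.8, 23.9, 32.3 and 27.7 CPM in LSK Mx1Cre controls and 37.3, 32.3, 37.7 and 43.6 CPM in LSK Mx1Cre knockouts. In progenitors it measured 44.9, 27, 29.3 and 29.5 CPM in Mx1Cre controls and 29.3, 33.5, 29.5 and 40.4 CPM in Mx1Cre knockouts. The first of these controls alone was above all 4 progenitor knockouts. Without LSK CreER knockouts 2 and 3 the median was 0.19, with 76 estimates above 0 and 0 called, beside 0.991% of all genes. Without progenitor Mx1Cre control 1 the median was 0.08, with 59 estimates above 0 and 0 called, beside 4.36% of all genes.

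With the mouse as a block, which pairs the LSK and progenitor library of each mouse, 1 member was called, beside 5.32% of all genes, and the median was 0.19. That gene was Mrpl33, with a difference of 0.60 ± 0.17 (SE) and an edgeR Benjamini-Hochberg adjusted p of 0.0442. In the blocked fit without progenitor Mx1Cre control 1, Mrpl33 was again the 1 called member, at 0.46 ± 0.13 (SE), beside 7.33% of all genes, and the median was 0.09. In the blocked fit without LSK CreER knockouts 2 and 3, 0 were called, beside 4.27% of all genes; Mrpl33 was at 0.63 ± 0.19 (SE) with an edgeR Benjamini-Hochberg adjusted p of 0.0806. Mice 2 and 3 of the CreER knockout group, whose LSK libraries did not match the labelled sex, were the only ones of 16 whose 2 libraries had a negative correlation of deviations from the group means (-0.094 and -0.063). What part this had in the blocked values was not tested further. Without the block no single member passed, and the size of the median depended on progenitor Mx1Cre control 1.

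Controls were also compared between the populations. In LSK controls 46 of the 78 genes were lower than in progenitor controls and 0 were higher, beside 34.6% of all genes called, 17.3% as lower. The median log2 fold change was -0.32, and 0 of 78 estimates were above 0. Large-subunit genes (32 of 51 lower) and small-subunit genes (14 of 26 lower) had medians of -0.32 and -0.31. Mrpl30 had the lowest p. Beside the LSK values given above, it measured 70, 73.7, 85.9 and 101 CPM in progenitor CreER controls and 98.6, 57.6, 55.5 and 66.5 CPM in progenitor Mx1Cre controls. Each progenitor control lay above every LSK control, the lowest at 55.5 CPM against 55.4 CPM, and the log2 fold change was -0.61 ± 0.11 (SE), with an edgeR Benjamini-Hochberg adjusted p of 6.74e-05.

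Mrps22 measured 43, 49, 42 and 41.6 CPM in LSK CreER controls and 52.3, 58.7, 59.5 and 64.3 CPM in progenitor CreER controls. In the Mx1Cre line its progenitor controls held 57.2, 39.1, 34.7 and 44.7 CPM, above the LSK values given earlier. Within each line the populations were separate, and its log2 fold change was -0.49 ± 0.09 (SE), with an edgeR Benjamini-Hochberg adjusted p of 0.000101. Mrpl19, a large-subunit protein with a bacterial counterpart, was at -0.40 ± 0.08 (SE). The extremes were Mrps36 at -0.62 ± 0.27 (SE), which did not pass, and Mrps25 at -0.01 ± 0.05 (SE).

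This count moved with the libraries in it. In CreER controls alone 4 were lower, beside 17.9% of all genes called and 7.28% called lower, with a median of -0.16. In Mx1Cre controls alone 52 were lower, beside 28.2% of all genes called and 15.4% called lower, with a median of -0.49, and without progenitor Mx1Cre control 1 the values were 5 and -0.23, beside 17.8% of all genes called. In the mean of both lines, leaving out that library gave 22 lower and a median of -0.20, beside 32.7% of all genes called, and leaving out progenitor CreER control 4 gave 27, beside 30.5%. With the length trend removed 48 were lower with a median of -0.22, beside 39.8% of all genes called. Also without progenitor Mx1Cre control 1 the count was 35 with a median of -0.18, beside 38% of all genes. These fits did not use the pairing of LSK and progenitor libraries by mouse. With the mouse as a block 52 were called with a median of -0.30, beside 38.9% of all genes. In the blocked fit without progenitor Mx1Cre control 1, 34 were called with a median of -0.20, beside 38% of all genes. Nuclear genes for respiratory subunits had 40 of 76 lower with a median of -0.36, and cytosolic ribosomal protein genes 2 of 84 with a median of -0.14. The 7 myeloid progenitor markers were all called lower and the 8 LSK markers all higher in LSK controls. The 8 include Kit and Ly6a (Sca-1), by which LSK cells are defined, so their direction is not an independent result.

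The last comparison set the control groups of both lines side by side; it uses the same control libraries as the comparisons above. In LSK controls 2 members were higher and 3 lower in Mx1Cre than in CreER, beside 21.7% of all genes called (11.7% higher, 10% lower), with a median log2 fold change of -0.07. Mrps21, the mitochondrial version of bacterial S21 and the shortest member (chromosome 3, 95862634 to 95871514), had 4.03, 6.51, 15.9 and 10.1 CPM in LSK CreER controls and 20, 15.5, 30.2 and 20.3 CPM in LSK Mx1Cre controls. The groups touched, since CreER control 3 was above Mx1Cre control 2. The log2 fold change was 1.24 ± 0.29 (SE), or 2.36-fold, with an edgeR Benjamini-Hochberg adjusted p of 0.00606. Mrpl33 (chromosome 5, 31613951 to 31622644) had 47.7, 42.9, 66 and 55.6 CPM in CreER and 86.5, 74.1, 90 and 84.9 CPM in Mx1Cre controls, which were separate, with a log2 fold change of 0.68 ± 0.16 (SE). The lower members were Mrps22 at -0.53, Mrps6 at -0.64 and Mrpl55 at -0.40. Mrps6 measured 19, 28.8, 28.3 and 21.6 CPM in CreER and 14.6, 15.1, 17.6 and 14.7 CPM in Mx1Cre controls.

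In progenitor controls 9 members were higher and 1 lower in Mx1Cre, beside 25.3% of all genes called (14.3% higher, 10.9% lower), with a median of 0.22. Mrps21 again led, with 7.43, 8.42, 11.5 and 11.2 CPM in CreER and 62.3, 23.4, 20.9 and 29.5 CPM in Mx1Cre controls. The groups were far apart, and the log2 fold change was 1.83 ± 0.32 (SE), or 3.56-fold, with an edgeR Benjamini-Hochberg adjusted p of 0.000822. Mrpl33 followed at 1.39 ± 0.31 (SE), from 39.6, 44.8, 67.8 and 77.1 CPM in CreER to 244, 94.9, 126 and 134 CPM in Mx1Cre controls. In the knockouts too both genes were higher with Mx1Cre: Mrps21 had 11.8, 11.4, 10.3 and 12.3 CPM in LSK CreER knockouts and 22.6, 21.9, 35.9 and 26.5 CPM in LSK Mx1Cre knockouts. Mrpl3 was the 1 lower member, at -0.35 ± 0.11 (SE). Without Mx1Cre control 1 the median in progenitor controls was -0.031 with 3 higher and 7 lower, beside 27.1% of all genes called. With the length trend removed it was -0.077 with 6 higher and 10 lower, beside 29.7%. The sign of the median thus depended on that library and on the length trend, while Mrps21 and Mrpl33 stayed called as higher in each of these settings.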

How the data were processed

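The submitters deposited raw counts per gene for 32 libraries in 8 groups of 4, made by the authors with featureCounts on mm10, per the submitters' processing notes. Which aligner, annotation or strandedness they used is not given in the sources used here. Libraries were paired-end RNA-seq, per the labels' protocols. The deposited counts were tested as given, with gene symbols from RefSeq (GRCm38.p6). Rows without a symbol stayed in the fits.

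Each population was fitted alone (16 libraries), and LSK against progenitor comparisons used all 32, with edgeR 4.0.16 in R 4.3.3: TMM scaling, filterByExpr with a minimum count of 10 and a minimum total of 15, and the quasi-likelihood test with Benjamini-Hochberg adjustment at 0.05 over all genes tested. Log2 fold changes are given with standard errors. For edgeR these were derived as the absolute log2 fold change over the square root of the F statistic. The labels do not say more of the replicates than that each is a mouse. Alternatives were DESeq2 1.42.0 and its size factors, other filters, a replicate block, leaving out libraries, and removal of each library's loess trend of log2 count on exon length (span 0.3). Those without the 2 libraries that go against their labelled sex, within 1 Cre line, or without progenitor Mx1Cre control 1 together with another change were added after seeing the data. The script was tested on simulated data.

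Named members were those with the lowest p among called genes in each direction. Up to 6 were taken in each population's knockout comparison averaged over the lines, or the 3 lowest p where fewer than 3 were called. In other comparisons up to 3 were taken. Also named were the largest rise and fall in each comparison, and the 5 highest and 3 lowest levels per kb. From each list, up to 3 genes with the lowest p in the mean LSK comparison were named. Mrpl30 in LSK CreER knockouts and Mrps31 in the LSK minus progenitor difference, each with the lowest p there, fall outside this rule. The members and lists were chosen with earlier results of these data known.

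The mouse, given in the labels, pairs LSK with progenitor libraries. Replicate numbers pair knockouts with controls only by number: of 16 such pairs 8 had a correlation of deviations over 0.1.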

Additional observations from a re-analysis of the deposited data

Results flagged for a closer look

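In 23 of 240 group values (the 29 named members and the summed level of the 78 genes, each in 8 groups), 1 library stood outside the other 3 by Dixon's criterion for 4 samples, which chance meets in about 1 of 20 groups. Of these, 10 were in progenitor Mx1Cre control 1: Mrpl13 at 165 CPM, Mrpl19 at 145, Mrpl3 at 105, Mrpl46 at 68.5, Mrpl52 at 131, Mrpl55 at 55.4, Mrps18c at 64.5, Mrps26 at 184, Mrps31 at 44.9 and Mrps6 at 33.6 CPM. All 10 were higher than the other 3 controls, for Mrps26 at 76.7 to 90.8 CPM.

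In LSK Mx1Cre controls, library 3 was high for Mrpl13 at 73.9, Mrpl20 at 70.3 and Mrpl54 at 45.7 CPM, and library 1 low for Mrpl30 at 42.8 CPM. In LSK Mx1Cre knockouts, library 2 was low for Mrpl16 at 57.4 and Mrpl46 at 35.9 CPM. In LSK CreER controls, library 3 was high for Mrpl36 at 75.1 and Mrps18c at 24.4 CPM, and in LSK CreER knockouts library 3 was low for Mrps18c at 18.4 CPM. In progenitors, Mrpl48 was at 53.6 CPM in Mx1Cre knockout 3, Mrpl52 at 55.6 in CreER control 4, Mrps10 at 61.3 in Mx1Cre knockout 4 and Mrps25 at 121 in CreER knockout 2, each above its group.

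The knockout effect on Mrps26 in LSK cells differed between the lines, by 0.66 on the log2 scale (Mx1Cre minus CreER, adjusted p of 0.0272 by edgeR with Benjamini-Hochberg adjustment).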

How the results depend on the processing

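In LSK Mx1Cre knockouts 39 to 69 of the 78 genes were called when 1 library was left out, beside 22.1% to 39.8% of all genes. The other ranges without 1 library, each beside the range over all genes, were 30 to 60 in the LSK mean (21.8% to 34.3%), 0 to 1 in LSK CreER (1.11% to 5.01%), 0 to 34 for the LSK difference between lines (2.24% to 17.9%), 4 to 13 in LSK controls (14.8% to 24.9%), 22 to 60 for LSK against progenitor controls (30.3% to 36.2%), 0 to 3 in progenitor Mx1Cre (3.99% to 11.1%, median -0.053 to 0.32), 0 to 2 in the progenitor mean (5.59% to 13%) and 3 to 12 in progenitor controls (16.7% to 27.1%, median -0.031 to 0.34). The median of the progenitor difference between lines ran from -0.075 to 0.31. For the LSK difference between lines, DESeq2 called 8 (8.72% of all genes), its size factors 3 (4.40%), and without CreER knockouts 2 and 3 it was 0 (2.13%). LSK controls had 13 called (25.6%) with the length trend removed. LSK against progenitor gave 4 in CreER controls alone (17.9%) and 15 there with the trend removed (23.2%), and in Mx1Cre controls alone without progenitor control 1 it gave 5 (17.8%), or 11 with the trend removed (23.4%). With the trend removed, progenitor controls gave 16 (29.7%, median -0.077) and the progenitor mean 3 (11.3%); also without Mx1Cre control 1 they gave 21 (33.1%, median -0.15) and 8 (18.2%), and progenitor Mx1Cre 3 (14.3%). Mrpl52 reversed with the trend removed, to -0.19 in LSK Mx1Cre and -0.13 in the LSK mean. Mrpl33 in progenitor Mx1Cre knockouts ran from -0.59 to 0.071, the latter without Mx1Cre control 1. The cause was not tested. With a replicate block (the mouse), the LSK minus progenitor effect had 1 called (5.32%), and also 1 without progenitor Mx1Cre control 1 (7.33%), where Mrps25 between LSK and progenitor controls was at 0.046. For LSK Mx1Cre knockouts the block by number gave 56 (29.9%).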
